A study of Mus musculus with 3 samples.

Results

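Heat shock proteins and chaperones were followed through scRNA-seq data of the developing medial prefrontal cortex (mPFC) by 10 genes: *Hsp90ab1*, *Hsp90aa1*, *Hsp90b1*, *Hspa8*, *Hspa5*, *Hspa9*, *Hspd1*, *Hspe1*, *Dnaja1* and *Ptges3*. They are 10 of the 14933 genes in the deposited table of filtered cells, matched by symbol, and all 10 had UMIs (unique molecular identifiers, each standing for 1 captured molecule) in every library. The genes were chosen by a list of symbols drawn up with their measured levels in these libraries and classes of cell known, so their values are a description and no test was run on them. The study asks what the transcription factor Tbr1 does in layer 5 neurons, and made 1 library per genotype from C57Bl6 mice at postnatal day 5 (P5). The groups are Wildtype Rbp4cre::tdTomato, Tbr1f/+::Rbp4cre::tdTomato (*Tbr1 layer5* heterozygous) and Tbr1f/f::Rbp4cre::tdTomato (*Tbr1 layer5* homozygous). All 3 groups, the wild-type included, carry the Rbp4-cre driver of layer 5 and the tdTomato reporter, and the mutants add 1 or 2 floxed *Tbr1* alleles that lose exons where Cre is active. Dissociated mPFC cells were sorted for tdTomato and captured with the 10X 3′ v2 kit. The number of animals per library is not given in the sources used here, and with 1 library per genotype a difference between libraries and a difference between genotypes cannot be told apart.

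Molecular chaperones bind proteins that are unfolded or unstable and help them to reach or keep their fold. HSP70 proteins act early, helped by J-domain proteins that deliver clients and start ATP hydrolysis, and HSP90 proteins take over late folding steps of kinases, receptors and other signalling proteins. Each compartment has its own set: *Hsp90ab1*, *Hsp90aa1*, *Ptges3*, *Hspa8* and *Dnaja1* act in cytosol and nucleus, *Hsp90b1* and *Hspa5* in the endoplasmic reticulum (ER), and *Hspa9*, *Hspd1* and *Hspe1* in mitochondria. Heat and other protein damage switch on many chaperone genes through HSF1, which binds repeats of short GAA units and their inverse TTC, while unfolded protein in the ER acts through ATF6 on the ER stress response element.

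In the promoters, 4 stretches are printed because they carry the letters of these elements. RefSeq windows on GRCm38.p6, from 250 bases before to 50 bases after a transcript start, matched 6 of the 10 genes with 9 windows, and 32851 windows were searched on both strands. The heat shock triplet TTCNNGAANNTTC was in 198 windows (0.603%), and the pairs it contains were common, TTCNNGAA in 8.52% and GAANNTTC in 7.86% of windows. The ER stress response element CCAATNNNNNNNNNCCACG was in 39 windows (0.119%). Of the 6 genes with a window, *Hspd1* and *Hspe1* held the triplet, *Hsp90b1* and *Hspa5* the ER element, *Dnaja1* the pair GAANNTTC without the triplet, and *Ptges3* none of these. In the stretches below, read 5′ to 3′ on the strand of the gene, capitals mark the fixed letters of the motif. A match describes letters and is not evidence of binding.
*Hsp90b1*, chr10:86705510-86705694, minus strand, bases −250 to −66, with 2 ER elements of opposite orientation: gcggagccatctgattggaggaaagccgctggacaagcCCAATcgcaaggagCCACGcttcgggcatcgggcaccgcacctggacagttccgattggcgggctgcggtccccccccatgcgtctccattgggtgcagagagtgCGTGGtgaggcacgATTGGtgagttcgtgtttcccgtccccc
*Hspa5*, chr2:34772020-34772049, plus strand, bases −70 to −41, with 1 ER element: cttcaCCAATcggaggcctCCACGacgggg
*Hspe1*, chr1:55088053-55088082, plus strand, bases −95 to −66, with 2 overlapping triplets on opposite strands: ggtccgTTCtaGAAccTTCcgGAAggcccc
*Dnaja1*, chr4:40722333-40722362, plus strand, bases −135 to −106, with 1 pair: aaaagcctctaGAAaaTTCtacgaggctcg
The *Hspe1* stretch also lies in a window of *Hspd1*. These genes sit head to head on chromosome 1 with overlapping 5′ ends (*Hspd1* at 55077835 to 55088243 on the minus strand and *Hspe1* at 55088132 to 55091307 on the plus strand, GENCODE positions on GRCm38), and their 3′ ends, which this kit reads, point away from each other.

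Lists of the authors put the cells into 3 classes: typical neuronal cells kept for their expression test (1778 wild-type, 5357 heterozygous and 3935 homozygous), atypical neuronal cells set aside (304, 107 and 462), and other sorted cells outside their neuronal table (2873, 1398 and 1182). Typical neuronal cells held 3670646, 10418228 and 6074494 UMIs, with medians of 1901, 1743 and 1375 UMIs and of 10.4%, 15.4% and 12.5% mitochondrial UMIs per cell. All 9 excitatory neuron markers were detected in them, at a summed 3060, 3725 and 4425 counts per 1000000 UMIs (CPM) against 1863, 2582 and 2878 in empty droplets of the same libraries. The 8 microglial markers summed to 58.9, 31.8 and 34.9, the 8 endothelial markers to 129, 43.6 and 71.0 and the 5 blood markers to 345, 44.6 and 85.8 CPM, each highest in the wild-type library. Astrocyte and radial glia markers, at 10928, 10050 and 11046 CPM, and oligodendrocyte lineage markers, at 490, 494 and 430.5 CPM, were not, and the part of these cells in the results was not tested. *Tbr1* stood at 27.5, 30.7 and 22.4 CPM, but its 3′ tag lies outside the deleted exons 2 and 3 and so does not check the genotype. Each pair of libraries shared 37 to 58 cell barcodes. Levels below are CPM of the summed cells with 95% exact Poisson intervals, ratios have 95% exact binomial intervals, and both cover counting error only. Each UMI marks a transcript end, so levels are not divided by length.

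*Hsp90ab1*, the constitutive cytosolic HSP90, was the most abundant of the 10 genes in wild-type and heterozygous typical neuronal cells, overlapped with *Hspa8* in homozygous ones, and stood lower in both mutant libraries. It reached 1099 CPM in wild-type cells (interval 1065 to 1133, 4033 UMIs), 804.6 in heterozygous cells (787.5 to 822, 8383 UMIs) and 747 in homozygous cells (726 to 769, 4539 UMIs). The 3 intervals did not overlap, and the wild-type library was the high one. The log2 ratio to wild-type was −0.56 in homozygous cells (−0.62 to −0.49) and −0.45 in heterozygous cells (−0.50 to −0.39), and homozygous over heterozygous was −0.11 (−0.16 to −0.05). *Hsp90aa1*, the stress-inducible cytosolic HSP90, stood at 491 CPM in wild-type, 367 in heterozygous and 352.5 in homozygous cells. Again wild-type cells was the high one, with log2 ratios to it of −0.48 for homozygous (−0.57 to −0.39) and −0.42 for heterozygous cells (−0.50 to −0.34), while the intervals of the mutant libraries overlapped. The proportion of the paralogs hardly differed, with 0.447 *Hsp90aa1* UMIs per *Hsp90ab1* UMI in wild-type cells (0.422 to 0.472), 0.457 in heterozygous and 0.472 in homozygous cells (0.448 to 0.497).

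*Ptges3* encodes p23, a co-chaperone that binds HSP90 in its ATP-bound, closed state. It stood at 162, 169.5 and 157 CPM in the wild-type, heterozygous and homozygous libraries, all with overlapping intervals. Its log2 ratio to wild-type was −0.05 in homozygous (−0.19 to 0.105) and 0.06 in heterozygous cells (−0.07 to 0.20). Relative to *Hsp90ab1* it was higher in both mutant libraries, at 0.148 UMIs per *Hsp90ab1* UMI in wild-type (0.135 to 0.161), 0.211 in heterozygous (0.200 to 0.222) and 0.211 in homozygous cells (0.196 to 0.226). Such a proportion within a library does not depend on the total used for scaling.

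*Hspa8*, the constitutive cytosolic HSP70 (HSC70) that also uncoats clathrin vesicles, had nearly the same level in all 3 libraries. It stood at 719.5, 716 and 727 CPM in the wild-type, heterozygous and homozygous libraries, with log2 ratios to wild-type of 0.02 for homozygous (−0.05 to 0.09) and −0.01 for heterozygous cells (−0.07 to 0.06). Its proportion to *Hsp90ab1* was 0.655 UMIs per UMI in wild-type cells (0.623 to 0.688), 0.890 in heterozygous (0.863 to 0.918) and 0.973 in homozygous cells (0.933 to 1.015), with no overlap of the 3 intervals. *Dnaja1*, a J-domain partner of HSC70, stood at 242 CPM in wild-type cells and higher in heterozygous (325) and homozygous (311) cells. Its log2 ratio to wild-type was 0.43 in heterozygous (0.32 to 0.53) and 0.36 in homozygous cells (0.25 to 0.48). Per *Hspa8* UMI there were 0.336 *Dnaja1* UMIs in wild-type (0.311 to 0.362), 0.453 in heterozygous (0.435 to 0.472) and 0.428 in homozygous cells (0.405 to 0.452).

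The ER chaperones were the least abundant of the 10 genes in typical neuronal cells, though *Hspa5* and *Hspa9* had overlapping intervals in homozygous ones. *Hspa5* encodes BiP, the HSP70 of the ER lumen that also holds the sensors of the unfolded protein response inactive. It stood at 46.0 CPM in wild-type cells (39.4 to 53.5, 169 UMIs), 61.05 in heterozygous cells (56.4 to 66.0, 636 UMIs) and 61.4 in homozygous cells (55.3 to 68.0, 373 UMIs). The wild-type library was the low one and its interval did not reach the others. The log2 ratio to wild-type was 0.42 in homozygous (0.15 to 0.69) and 0.41 in heterozygous cells (0.16 to 0.66), and homozygous over heterozygous was 0.01 (−0.18 to 0.20). *Hsp90b1* encodes GRP94, the HSP90 of the ER, and stood at 37.9, 37.8 and 41.0 CPM in the wild-type, heterozygous and homozygous libraries. All 3 intervals overlapped, and with 139 wild-type UMIs the homozygous over wild-type log2 ratio of 0.11 had an interval from −0.19 to 0.42.

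Of the mitochondrial genes, *Hspd1* and *Hspe1* encode HSP60 and HSP10, the barrel and lid of the matrix folding chamber, and *Hspa9* encodes mortalin, the matrix HSP70. *Hspe1* stood at 668 CPM in wild-type, 554 in heterozygous and 579 in homozygous cells, with log2 ratios to wild-type of −0.27 for heterozygous (−0.34 to −0.20) and −0.21 for homozygous cells (−0.28 to −0.13). *Hspd1*, at 123 in wild-type, 142 in heterozygous and 139 in homozygous cells, lay the other way, with log2 ratios of 0.20 (0.05 to 0.36) and 0.18 (0.01 to 0.35). The partners of the folding chamber were thus in different proportions, with 5.42 *Hspe1* UMIs per *Hspd1* UMI in wild-type cells (4.90 to 6.01) against 3.91 in heterozygous (3.69 to 4.14) and 4.155 in homozygous cells (3.85 to 4.48). *Hspa9* stood at 66.5, 80.6 and 71.8 CPM, with a log2 ratio to wild-type of 0.28 for heterozygous (0.07 to 0.49) and 0.11 for homozygous cells (−0.12 to 0.34).

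**Figure D1:**
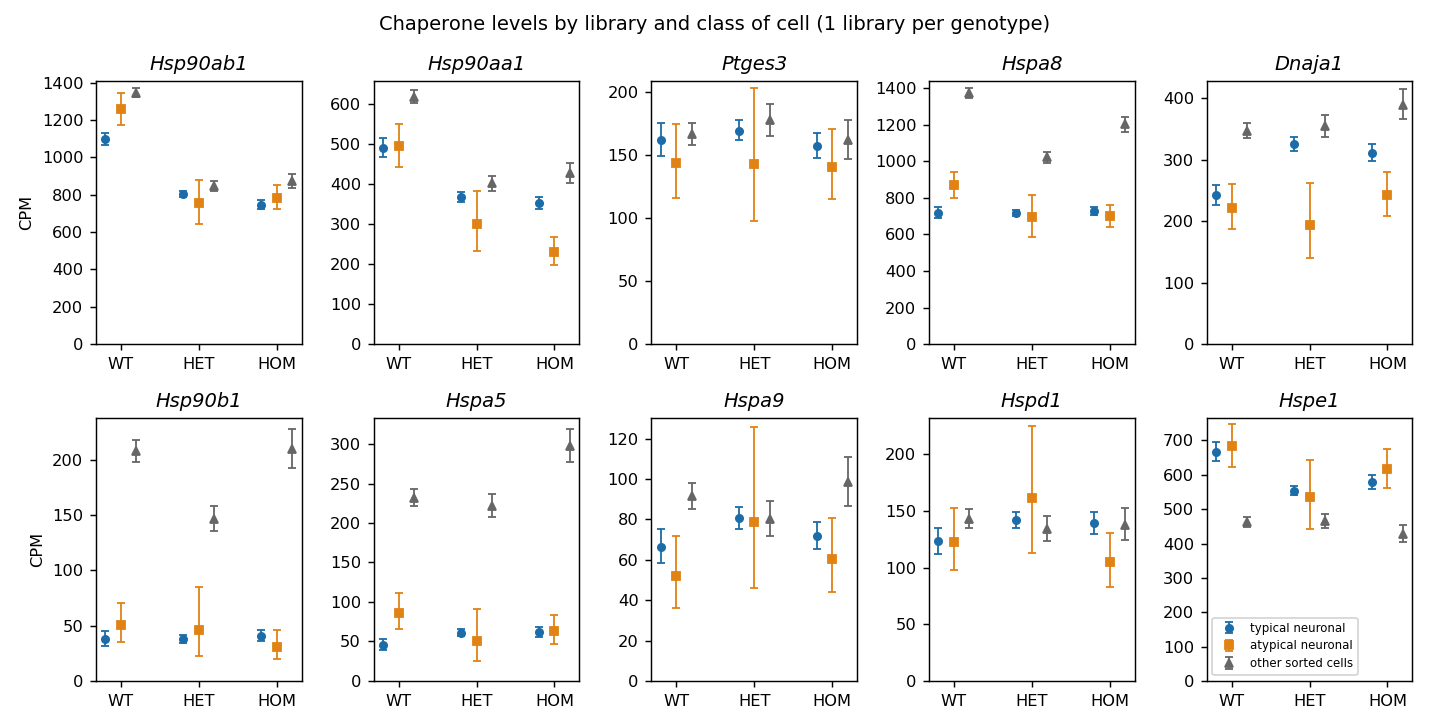
Level of each gene (vertical axes, CPM, each starting at 0) in wild-type (WT), heterozygous (HET) and homozygous (HOM) library, by class of cell, with bars for the 95% counting interval. *Hsp90ab1* in typical neuronal cells stood at 1099 in wild-type and 747 in homozygous cells, and *Hsp90b1* and *Hspa5* stood far higher in other sorted cells (triangles) than in neuronal cells.

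Counted by a fixed size, the 10 genes went different ways. A gene was called where its levels differed by at least 1.3-fold (0.38 on the log2 scale) and averaged at least 20 CPM, a minimum that all 10 genes passed in every comparison. The values below were known when the genes were chosen, so nothing is read from these counts. Homozygous over wild-type, 2 of 10 were called lower (*Hsp90ab1* and *Hsp90aa1*), as were 6.39% of 4269 genes tested, and 1 was called higher (*Hspa5*), as were 11.5%. Nearest to the limit, *Hspa5* lay past it at 0.42 and *Dnaja1* short of it at 0.36. Heterozygous over wild-type, 2 were called lower (*Hsp90ab1* and *Hsp90aa1*), as were 7.73% of 4230 genes, and 2 were called higher (*Dnaja1* and *Hspa5*), as were 12.3%. Homozygous over heterozygous, 0 of 10 were called lower (1.88% of 4307 genes) and 0 higher (2.76%). The median log2 ratio to wild-type of the 10 genes was 0.06 (homozygous) and 0.03 (heterozygous), beside 0.08 and 0.06 over all genes. Both mutant comparisons share the single wild-type library.

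**Figure D2:**
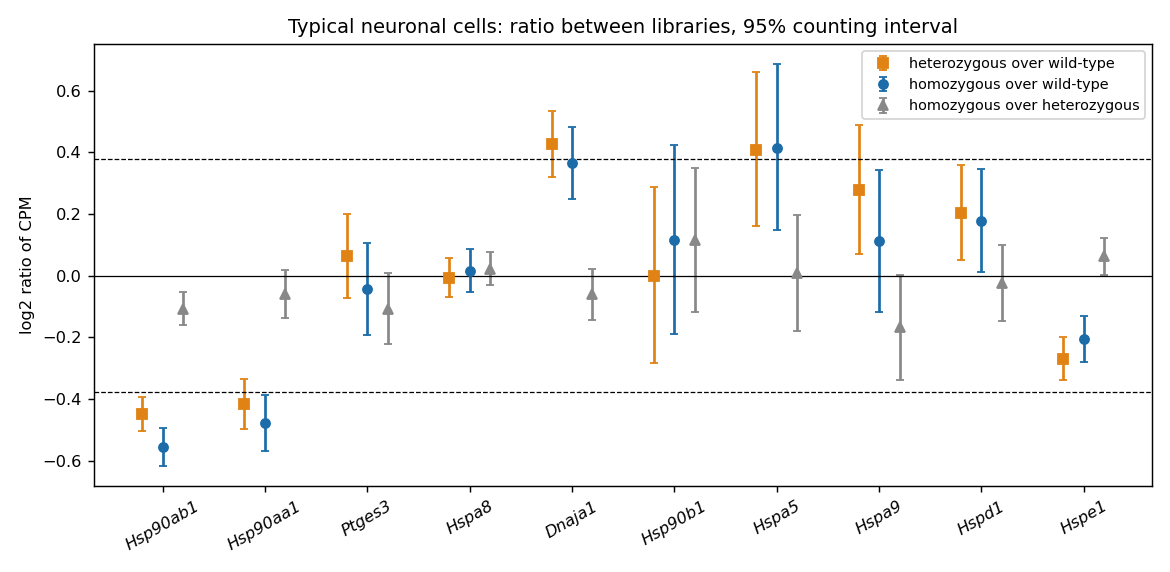
Log2 ratio of CPM between libraries for each gene in typical neuronal cells, with bars for the 95% counting interval and dashed lines at 1.3-fold. The *Hsp90ab1* ratio to wild-type is −0.56 in homozygous and −0.45 in heterozygous cells, and the homozygous over heterozygous ratios (triangles) all lie between the dashed lines.

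The heterozygous calls of the HSP90 genes changed with the treatment of mitochondrial UMIs, whose share was highest in that library. With mitochondrial UMIs left out of the total, a setting chosen after seeing the data, heterozygous over wild-type was −0.37 for *Hsp90ab1* and −0.33 for *Hsp90aa1*. In cells under 15% mitochondrial UMIs (2411 of 5357 heterozygous and 1691 of 1778 wild-type cells) it was −0.33 and −0.28, so neither gene was called in either setting. Homozygous over wild-type, *Hsp90ab1* was at −0.52 and −0.53 in these settings and stayed called. The homozygous call of *Hspa5* was lost with the total taken over the genes of the neuronal table (0.36) and with atypical cells included (0.24, and 0.22 for the heterozygous call, which was lost too), and its homozygous ratio was 0.86 in 1 random draw of 1000 UMIs per cell. In the same draw the heterozygous call of *Dnaja1* was lost (0.32).

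Lists of other chaperone and stress genes were counted by the same calls in typical neuronal cells, to be read beside the shares of all genes above. Of 13 HSP90 and co-chaperone genes past the minimum, 2 were called lower and 0 higher in homozygous cells, and 2 lower and 2 higher in heterozygous cells, the 2 lower being the HSP90 genes above. The 2 higher were *Ppid* (log2 ratio 0.63, 0.32 to 0.95) and *Ppp5c* (0.59, 0.34 to 0.86), a cyclophilin and a phosphatase that dock on HSP90 through TPR domains, and in homozygous cells they stood at 0.33 (−0.02 to 0.68) and 0.25 (−0.04 to 0.54). Of 13 J-domain genes, 1 was called higher in homozygous and 2 in heterozygous cells. *Dnajb6*, which suppresses polyglutamine aggregation, was called in both, at 192 CPM in wild-type, 283 in heterozygous and 284 in homozygous cells. *Hspa5* was the only call among 5 HSP70 and HSP110 genes, and none of 5 nucleotide exchange factors or 9 mitochondrial folding and proteolysis genes was called in either mutant library. None of 15 chaperonin and prefoldin genes was called in homozygous cells, and 2 were called higher in heterozygous cells, among them *Pfdn4* (0.39, 0.24 to 0.55).

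Of 10 ER folding genes, 1 was called lower and 2 higher in homozygous cells. *Calr*, which encodes the lectin chaperone calreticulin, was the lower one (−0.40, −0.62 to −0.19), and *Selk*, an ER selenoprotein gene (0.38, 0.29 to 0.48), and *Hspa5* were the higher ones. In heterozygous cells 0 of these 10 genes were called lower, with *Calr* at −0.27 (−0.45 to −0.07), and the 2 called higher were again *Selk* (0.46, 0.38 to 0.55) and *Hspa5*. *Cryab*, the small heat shock protein αB-crystallin, was 1 of 2 small heat shock genes past the minimum and was called higher at 0.54 (0.26 to 0.82) in homozygous and 0.79 (0.54 to 1.06) in heterozygous cells. Of 11 heat-inducible genes only *Hsph1* and *Dnajb1* passed the minimum and neither was called, with homozygous over wild-type at 0.29 (−0.01 to 0.60) and −0.02 (−0.45 to 0.41). Of 4 integrated stress response genes past the minimum, *Ddit3* was called lower at −0.59 (−0.97 to −0.22) in homozygous cells, the 1 call there, and −0.46 (−0.79 to −0.13) in heterozygous cells. There *Atf4*, the transcription factor of this response, was also called lower (−0.50, −0.74 to −0.26) and *Asns*, which encodes asparagine synthetase, was called higher (0.51, 0.28 to 0.74). Neither of 2 immediate early genes was called. The 10 abundant genes taken for scale went both ways, with 3 called lower and 1 higher in homozygous and 2 lower and 1 higher in heterozygous cells. Among the lower ones in homozygous cells, *Tpt1* was at −0.54 (−0.60 to −0.48) and *Eef1a1*, a translation elongation factor, at −0.52 (−0.57 to −0.48).

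The levels in typical neuronal cells lay near or below those in empty droplets of the same library for 9 of the 10 genes. The median log2 ratio of cells over droplets was also near 0 over all genes, so a level near the droplets does not set these genes apart. It was 0.06 (wild-type), −0.0065 (heterozygous) and 0.02 (homozygous) over all genes, and −0.02, −0.12 and −0.08 over the 10. Empty droplets are barcodes of 100 or more but under 500 UMIs, taken to hold free RNA of the suspension (44157, 40520 and 55787 barcodes). They were taken as empty by this count alone, without a test. *Hsp90ab1* was at 1118, 832 and 775.5 CPM in the droplets of the wild-type, heterozygous and homozygous libraries, which gives a log2 ratio of cells over droplets of −0.02 (−0.07 to 0.02), −0.05 (−0.09 to −0.0031) and −0.05 (−0.10 to −0.0033). *Hspe1* was at −0.0087, −0.0033 and 0.0056. *Hspa8* was lower in cells, at −0.19 (−0.25 to −0.13), −0.34 (−0.39 to −0.29) and −0.18 (−0.23 to −0.13), as was *Hspa5* at −0.37 (−0.61 to −0.13), −0.47 (−0.63 to −0.31) and −0.31 (−0.48 to −0.14). *Dnaja1* was lower by less, at −0.13 (−0.235 to −0.02), −0.10 (−0.17 to −0.03) and −0.10 (−0.18 to −0.02). In the wild-type, heterozygous and homozygous libraries the interval lay below 0 for 4, 8 and 4 of the 10 genes. The share of all genes with such an interval was not counted, and abundant genes reach it at small ratios, so nothing is read from these counts. *Ptges3* stood above the droplets in each library, at 0.33 (0.19 to 0.46), 0.16 (0.06 to 0.27) and 0.19 (0.08 to 0.30), the only one of the 10 to do so. These ratios ranked at the 82.4, 80.0 and 77.6 percentile of all genes, so many other genes stood further above the droplets. By call, in cells over droplets, 1 gene was lower in the wild-type library (*Hsp90b1*, beside 5.66% of all genes) and 0 higher (14.1%). In the heterozygous library 2 were lower (*Hsp90b1* and *Hspa5*, 6.41%) and 0 higher (6.18%), and in the homozygous library 0 were lower (3.89%) and 0 higher (8.92%).

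Each ratio to wild-type with an interval off 0 in typical neuronal cells had the same sign in the droplets. The droplet intervals excluded 0 there too. In empty droplets *Hsp90ab1* was at −0.53 (−0.56 to −0.49) homozygous and −0.43 (−0.47 to −0.39) heterozygous over wild-type, *Dnaja1* at 0.33 (0.27 to 0.40) and 0.40 (0.33 to 0.46), and *Hspa5* at 0.36 (0.23 to 0.49) and 0.51 (0.37 to 0.65). In the same order *Hsp90aa1* was at −0.46 and −0.35, *Hspe1* at −0.22 and −0.27, *Hspd1* at 0.27 and 0.38, and *Hspa9* at 0.23 and 0.43. Where the interval in cells held 0, some droplet values stood apart. Heterozygous over wild-type, *Hspa8* was at 0.14 (0.10 to 0.18) in droplets against −0.01 in cells. *Ptges3* was at 0.23 (0.12 to 0.33) against 0.06, with the same sign. Homozygous over wild-type, *Hsp90b1* was at −0.18 (−0.33 to −0.02) in droplets against 0.11 in cells. Subtracting the droplet profile at the largest share the non-neuronal markers allow (27.2%, 13.05% and 19.7% of UMIs) left *Hsp90ab1* in cells at −0.56 and −0.45, which the near-equal level in droplets and cells fixes. The part of free RNA in the cell values was not tested.

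**Figure D3:**
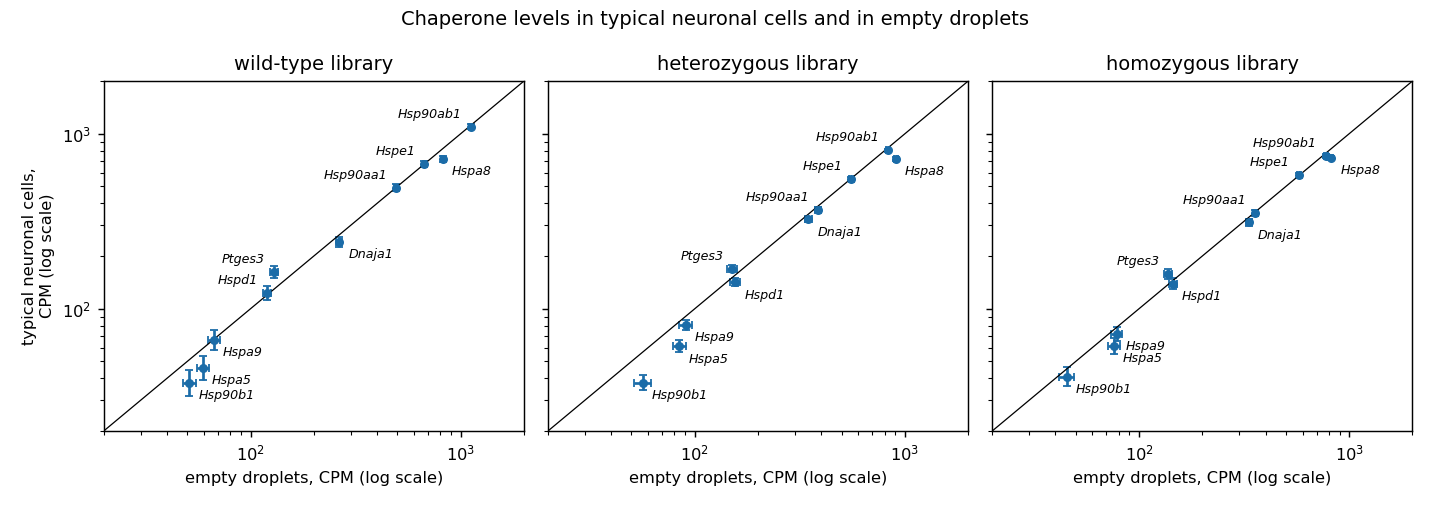
Level of each gene in empty droplets (horizontal axis) and typical neuronal cells (vertical axis) of the same library, both in CPM on log scales, with 95% counting intervals and the line of equal levels. *Hsp90ab1*, *Hsp90aa1* and *Hspe1* lie on or next to the line, *Ptges3* above it, and *Hspa8* and *Hspa5* below it.

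Within typical neuronal cells most of the 10 genes were too sparse to show variation from cell to cell. With every cell thinned to 1000 UMIs, which left out no cell, *Hsp90ab1* had a UMI in 64.85% of wild-type, 55.6% of heterozygous and 51.6% of homozygous cells, against 87.2%, 75.9% and 66.05% before thinning. The least often seen in thinned wild-type cells were *Hspa5* at 3.43% (2.63 to 4.385) and *Hsp90b1* at 3.49% (2.68 to 4.45). Before thinning *Hsp90b1* was the rarer of them there, at 7.03% against 8.94%. In thinned heterozygous and homozygous cells *Hspa5* was at 6.085% and 6.05%, and *Hsp90b1* at 3.77% and 3.91%. Thinning was 1 random draw, in which the homozygous over wild-type log2 ratio of *Hspa5* was 0.86, against 0.42 in all UMIs. Every cell type uses these genes, so none serves as a background for such shares. The variance over the mean of thinned UMIs ran from 0.979 to 1.07 over the 10 genes and 3 libraries, where counting alone gives about 1. Mean UMIs per thinned cell ran from 0.0354 to 1.10, and at the lower of these a variance over the mean near 1 says little about differences between cells. Pearson correlations between pairs of the 10 genes across thinned cells ran from −0.05 to 0.07 over 135 combinations of pair and library, too weak in such sparse counts to describe a relation.

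From 1 to 3 of the 10 genes were called in each library between atypical and typical neuronal cells, and *Hsp90b1* was called in opposite directions in the wild-type and homozygous libraries with both intervals spanning 0. In the wild-type library 2 of the 10 were called higher, *Hspa5* at 0.90 (0.44 to 1.34) and *Hsp90b1* at 0.41 (−0.18 to 0.96), as were 22.1% of all genes, and 0 lower (15%). In the heterozygous library, with 107 atypical cells, *Dnaja1* was called lower at −0.74 (−1.22 to −0.30), as were 29.4% of genes, and 0 were called higher (19.2%). In the homozygous library 3 were called lower, *Hsp90aa1* at −0.61 (−0.84 to −0.39), *Hspd1* at −0.41 (−0.77 to −0.08) and *Hsp90b1* at −0.41 (−1.09 to 0.21), as were 21.8% of genes, and 0 higher (11.8%). The counts lie around these shares of all genes. *Hsp90aa1* was at 231 CPM (198 to 268) in homozygous atypical cells, the lowest of the 9 sums of library and class. That interval overlapped the one of heterozygous atypical cells (232 to 383). In homozygous atypical cells it was at 0.294 UMIs per *Hsp90ab1* UMI (0.247 to 0.349) against 0.472 in typical cells of that library. The blood markers summed to 997 CPM in homozygous atypical cells against 85.8 in typical cells, and their part in these values was not tested.

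Other sorted cells differed most from typical neurons in the ER chaperones. *Hsp90b1* reached 208, 146 and 209 CPM in the other sorted cells of the wild-type, heterozygous and homozygous libraries against 37.9, 37.8 and 41.0 in typical neurons, a log2 ratio of 2.455 (2.205 to 2.715), 1.95 (1.77 to 2.14) and 2.35 (2.13 to 2.57). *Hspa5* reached 232, 222 and 297 against 46.0, 61.05 and 61.4, a log2 ratio of 2.33 (2.11 to 2.57), 1.86 (1.72 to 2.01) and 2.275 (2.10 to 2.46). The intervals of the classes lay far apart in each library, and both ratios ranked between the 93.1 and 95.9 percentile of all genes. All 20 genes of the wider ER folding list, with no minimum level, summed to 2927, 2284 and 3094 CPM in other sorted cells against 1003, 1145 and 1131 CPM in typical neurons. *Hspa8* was higher at 0.93, 0.51 and 0.72, and *Hspe1* was lower at −0.53, −0.25 and −0.43.

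By call, 5 of the 10 were higher in other sorted than typical cells of the wild-type library (beside 53.7% of all genes) and 1 lower (16.4%). In the heterozygous library 3 were higher (32.9%) and 0 lower (6.03%), and in the homozygous library 4 were higher (45%) and 1 lower (14.3%). With DESeq2 size factors in place of totals, which shift every gene by −0.78, −0.48 and −0.67 in the 3 libraries, *Hsp90b1* (1.68, 1.47 and 1.69) and *Hspa5* (1.56, 1.38 and 1.61) were the 2 still called higher, beside 23.8%, 13.7% and 20.7% of all genes, and 5 were called lower in each library, beside 47.4%, 46.4% and 49.75%. The share of all genes called thus turned with the scaling, and the counts of the 10 followed it. Immediate early genes, which dissociation can induce, stood at a summed 986, 1052 and 1228 CPM in other sorted cells against 369.7, 456 and 452.5 in typical neurons, and their part in the result was not tested.

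Clusters of the 5453 other sorted cells, made without the chaperone genes, show which cells held these levels. Their names were rebuilt from marker lists, 10 of 25 clusters were left unnamed, and no doublet caller was run. *Hsp90b1* was highest in microglia-like cells at 539 CPM (478 to 606, 186 cells), followed by endothelial-like cells at 302 (275 to 331.5) and oligodendrocyte lineage-like cells at 289.9 (257 to 326), whose intervals overlapped. *Hspa5* was at 488 (429.9 to 551.5) in microglia-like and 449 (383.5 to 522) in mural-like cells, with overlapping intervals and the other order within the wild-type library (387 and 432), then at 384 in oligodendrocyte lineage-like, 382 in endothelial-like and 376 in astrocyte and radial glia-like cells. Inhibitory neuron-like cells were far lower, at 94.5 (80.25 to 110.5) for *Hsp90b1* and 112 (96.5 to 129) for *Hspa5*. The lowest levels were in unnamed clusters, 39.3 for *Hsp90b1* in cluster 7 (led by *Bhlhe22*, *Nrgn* and *Camk2a*, with 269 of its 356 cells from the heterozygous library) and 60.3 for *Hspa5* in cluster 3 (led by *Prc1*, *Gng7* and *Nefl*). These clusters overlapped for both genes, with *Hsp90b1* at 50.25 (37.3 to 66.25) in cluster 3 and *Hspa5* at 68.8 (56.3 to 83.3) in cluster 7. From the lowest to the highest of 17 cell groups *Hsp90b1* spanned 13.7-fold and *Hspa5* 8.09-fold, against 2.55-fold for *Ptges3* and 2.735-fold for *Hspe1*.

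The cytosolic genes had another order. *Hsp90aa1* was highest in cycling-like cells at 1193 CPM (1133 to 1255), and lowest in blood-like cells at 174 (129 to 229.6). *Dnaja1* (516) and *Ptges3* (257.5), and of the mitochondrial genes *Hspd1* (232), also had their highest level in cycling-like cells, each with an interval that overlapped the next group. *Hsp90ab1* and *Hspa8* were highest in an unnamed cluster of 67 cells led by *Lhx1os*, *Nhlh2*, *Reln* and *Ndnf*, at 2509 (2348 to 2677) and 2827 (2656 to 3005), which was also the deepest with a median of 6125 UMIs per cell. Cycling-like (1600) and inhibitory neuron-like cells (1579) came next for *Hsp90ab1* with overlapping intervals, and blood-like cells were lowest for both genes at 689.7 and 603. Their intervals overlapped those of the next lowest group, unnamed cluster 7, at 758 and 672. Libraries contribute unequally to these sums: 304 of 368 cycling-like and 599 of 778 inhibitory neuron-like cells were wild-type, the library where *Hsp90ab1* and *Hsp90aa1* stood highest. So were 47 of the 67 cells in the cluster led by *Lhx1os*.

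**Figure D4:**
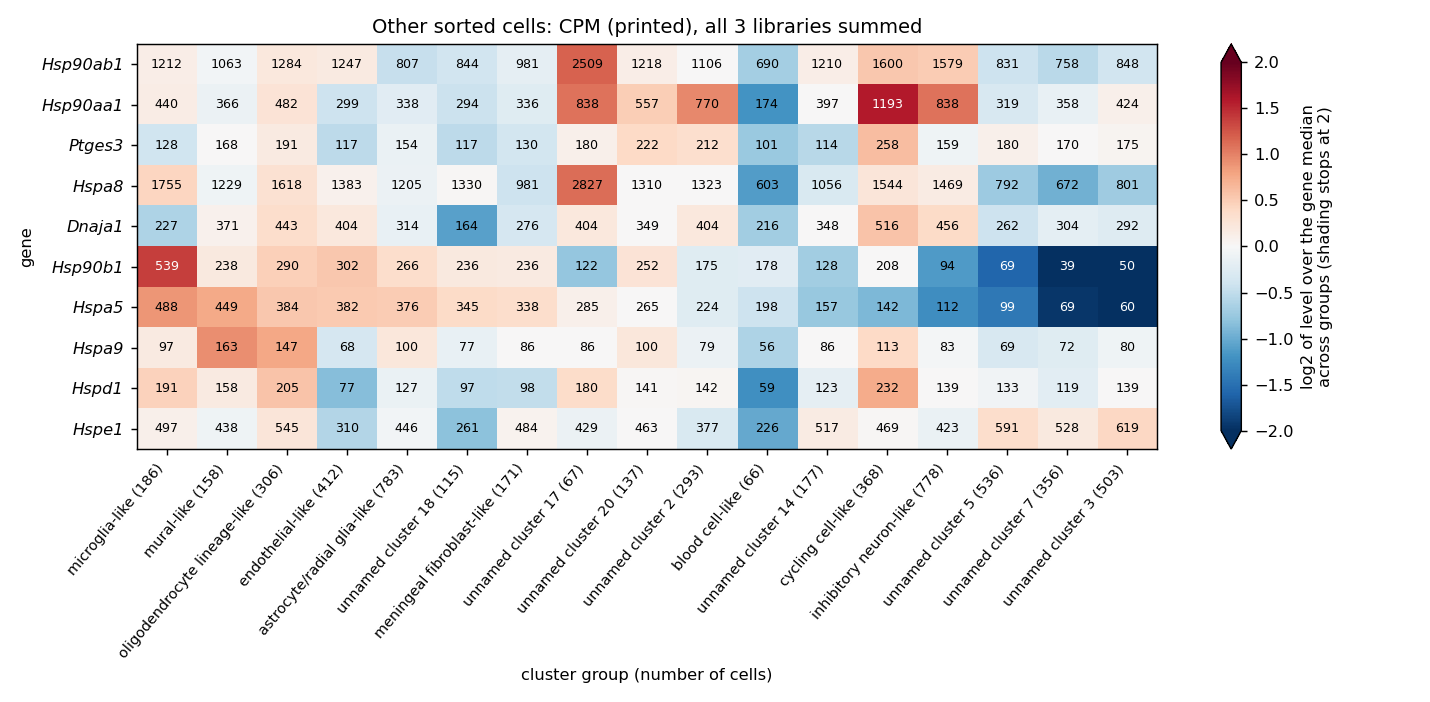
Level of each gene (printed, CPM, 3 libraries summed) in groups of clusters of the other sorted cells with at least 50 cells, ordered by *Hspa5*, with shading for the log2 distance from the median of that gene over groups. *Hsp90b1* and *Hspa5* grade from 539 and 488 in microglia-like cells to 39.3 and 60.3 in the lowest clusters, while *Ptges3* and *Hspe1* vary less.

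*Hsp90ab1* also stood lower in the mutant libraries in cells outside the neuronal table. Homozygous over wild-type, its ratio and whole interval lay below 0 in 8 of 8 cell groups with at least 50 cells in both libraries, from −0.84 to −0.28 with a median of −0.57. It was −0.51 (−0.71 to −0.31) in astrocyte and radial glia-like, −0.65 (−0.83 to −0.48) in endothelial-like, −0.59 (−0.81 to −0.37) in inhibitory neuron-like and −0.49 (−0.74 to −0.25) in oligodendrocyte lineage-like cells, the remainder being 4 unnamed clusters. The excitatory neuron marker *Neurod6* was among the 10 leading genes of unnamed cluster 3, so the 8 groups need not be 8 separate cell types. Of 6096 genes, 3.41% had a ratio and 0.82% an interval below 0 in all 8, and *Hsp90ab1* was the 1 of the 10 genes in either count. Heterozygous over wild-type, its interval lay below 0 in 7 of 7 cell groups, as did that of 1.14% of 5980 genes, from −0.88 in endothelial-like to −0.35 in inhibitory neuron-like cells, with microglia-like cells at −0.44 (−0.72 to −0.18). A ratio below 0 in all 7 was held by 4.92% of genes and by 3 of the 10, *Hsp90ab1*, *Hsp90aa1* and *Hspe1*. These shares are of genes averaging at least 20 CPM, and small groups held few UMIs of the sparse ones (homozygous cluster 14 summed 73538 UMIs). Sparse genes can hardly have an interval below 0 in every group, so the shares do not compare *Hsp90ab1* with genes of its level.

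*Hspa5* and *Dnaja1*, which stood higher in mutant neurons, had ratios above 0 in most of these groups. *Hspa5* was above 0 in 7 of 8 groups homozygous over wild-type, 4 of them with the whole interval, with a median of 0.65, and in 7 of 7 heterozygous over wild-type with a median of 0.53. A ratio above 0 in every group was held by 2.84% of genes and 0 of the 10 in the homozygous comparison, and by 3.81% of genes and 1 of the 10, *Hspa5*, in the heterozygous comparison. *Dnaja1* was above 0 in 7 of 8 and 5 of 7 groups, with medians of 0.45 and 0.39. In 3 of the 4 named groups its homozygous interval held 0, at 0.13 (−0.16 to 0.42) in astrocyte and radial glia-like, 0.06 (−0.23 to 0.34) in endothelial-like and −0.06 (−0.45 to 0.30) in inhibitory neuron-like cells. Heterozygous over wild-type it was at −0.01 (−0.31 to 0.28) in astrocyte and radial glia-like and −0.06 (−0.42 to 0.28) in endothelial-like cells. The astrocyte and radial glia-like group differed in make-up, since cluster 13 held 195 of its 484 wild-type, 3 of its 131 heterozygous and 51 of its 168 homozygous cells. *Hspa8* had medians of −0.07 and −0.01, with the whole interval below 0 in 2 of 8 and 1 of 7 groups and above 0 in none. The groups share the same 3 libraries and their free RNA. Within the inhibitory neuron-like group, cluster 16 held most wild-type (402) and heterozygous (79) cells and cluster 23 most homozygous ones (78), and within the oligodendrocyte lineage-like group cluster 19 held most wild-type cells (141) and clusters 8 and 9 most homozygous ones (20 and 26).

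**Figure D5:**
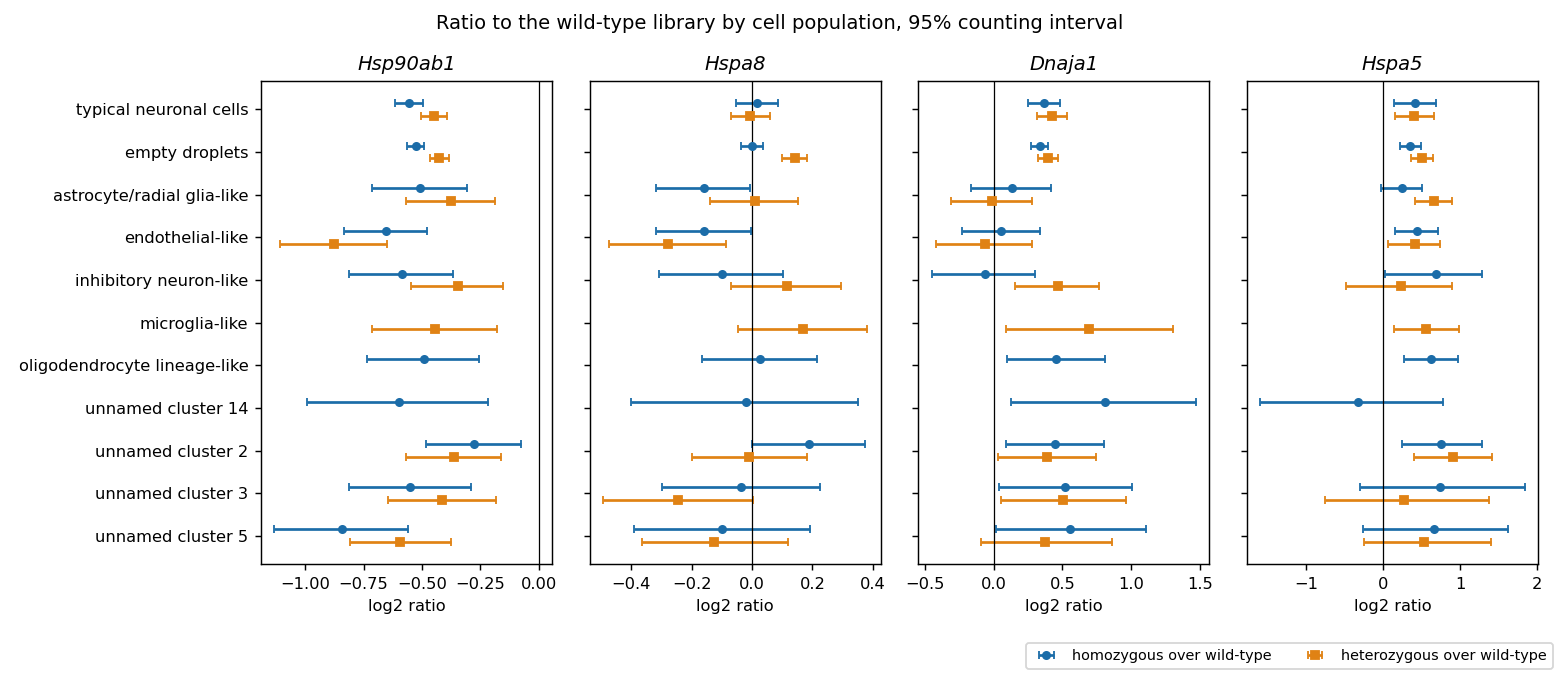
Log2 ratio of the homozygous (circles) and heterozygous library (squares) to the wild-type library for 4 genes in typical neuronal cells, empty droplets and each cell group with at least 50 cells in both libraries, with 95% counting intervals. *Hsp90ab1* lies below 0 in every population drawn, *Hspa8* around 0, and *Dnaja1* and *Hspa5* mostly above 0.

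Over the 9 sums of library and class, likeness was measured by Pearson's r of log2 level among 3160 genes with at least 20 CPM in each sum. Apart from the 10 genes themselves, the 5 most like *Hsp90ab1* were *Vps36* (0.958), *Gm42418* (0.941), *Cct2* (0.935), *Nucks1* (0.929) and *B230219D22Rik* (0.923), where *Cct2* encodes a subunit of the cytosolic chaperonin. The 5 most like *Hspa5* were *Jun* (0.986), *Tmed2* (0.983), *Ostc* (0.983), *Rpn1* (0.982) and *PISD* (0.981), where *Tmed2* acts in cargo transport from the ER and *Ostc* and *Rpn1* encode parts of the oligosaccharyltransferase of the ER membrane. *Hsp90ab1* and *Hsp90aa1* had 0.842. Sums of 1 library share its depth and free RNA, so these values only rank likeness.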

How the data were processed

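Raw UMI counts per gene and cell were deposited by the authors for 17396 filtered cells and 14933 genes, made with Cell Ranger 2.0.1 on mm10 per the labels, together with count matrices of all barcodes. The fraction of mitochondrial UMIs per cell was deposited by the authors in the cell metadata. The neuronal table deposited by the authors holds natural log values and served only for its list of 7174 genes, and their scaled table was not used. How reads shared with processed pseudogenes were counted is not given in the sources used here.

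Raw UMIs were summed per library and class of cell and divided by the summed UMIs (Python 3.11.15, scipy 1.17.1). The 10 genes, the gene lists and the comparisons were chosen with earlier results of these data known. With 1 library per genotype no test was made. All 10 genes are named, and up to 3 of each other list, those with the largest absolute homozygous over wild-type ratio. Other sorted cells were clustered with scanpy 1.11.5 on 2000 variable genes, 20 components, 15 neighbours and Leiden resolution 1, and a name needed at least 3 markers at 4-fold, at least 1 of them among the 10 leading genes, and no other list with more there. Size factors of DESeq2 1.42.0 and TMM factors of edgeR 4.0.16 were alternatives. The ratio script was tested on simulated data.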

Additional observations from a re-analysis of the deposited data

How the results depend on the processing

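No paired analysis was possible because each genotype has 1 library. Of 1109 log2 ratios of the 10 genes over all other settings, 910 stayed within the counting interval of the reported value, 190 moved outside it and 9 called ones changed sign. The settings of 1.5-fold and of no minimum level leave every ratio as it was. Their rows could only count among the 910, so that number overstates how many recomputed ratios stayed. The cause was not tested. Leaving mitochondrial UMIs out of the total and comparing cells with empty droplets were chosen after seeing the data. Homozygous over wild-type, the 2 called lower became 5 by raw UMIs per cell, which shifts every gene by −0.42, and 0 at 1.5-fold. The 1 called higher became 0 over the genes of the neuronal table, by raw UMIs per cell, at 1.5-fold and with atypical cells included, and 2 with the droplet profile subtracted, in cells under 15% mitochondrial UMIs and without mitochondrial UMIs in the total, and *Hspa5* was at −0.0040 by raw UMIs per cell. Heterozygous over wild-type, the 2 lower became 0 under 15% mitochondrial UMIs, without mitochondrial UMIs in the total and at 1.5-fold, and the 2 higher became 0 by raw UMIs per cell and at 1.5-fold and 1 with atypical cells included (*Hspa5* was lost at 0.22), while thinning kept the number but exchanged *Dnaja1* (0.32) for *Hspd1* (0.41). Homozygous over heterozygous, the 0 lower became 5 by raw UMIs per cell. For atypical over typical cells, the wild-type 0 lower became 1 with DESeq2 or TMM factors or droplets subtracted, and the 2 higher became 1 with either factor, by the mean over cells and at 1.5-fold, and 3 with droplets subtracted. The heterozygous 1 lower became 2 by the mean over cells and without the 5% deepest cells and 3 when thinned or under 15% mitochondrial UMIs (20 cells, with no *Hspa5* UMI and so no ratio for it), and the 0 higher became 1 over the neuronal genes, by the mean over cells and when thinned, and 3 under 15%. The homozygous 3 lower became 1 over the neuronal genes, by raw UMIs, under 15% and at 1.5-fold, and thinning lost *Hspd1* (−0.26) and *Hsp90b1* (−0.31) and added *Hspa9* (−0.41). With droplets subtracted these 3 stayed and *Dnaja1* (−0.48) was added. For other over typical cells, the wild-type 1 lower and 5 higher became 5 and 2 with DESeq2 or TMM, 0 and 9 by raw UMIs, and 0 and 3 at 1.5-fold, and with droplets subtracted the 5 higher became 7, adding *Hsp90ab1* (0.39) and *Hsp90aa1* (0.44). The heterozygous 0 lower became 5 with DESeq2, 3 with TMM and 1 under 15%, and the 3 higher became 10 by raw UMIs. The homozygous 1 lower became 5 with DESeq2, 4 with TMM and 0 by raw UMIs, by the mean over cells, when thinned and at 1.5-fold, and the 4 higher became 2 with DESeq2 or TMM, 9 by raw UMIs and 5 with droplets subtracted. In the wild-type and homozygous libraries the higher call of *Hspa9* (0.46 in each) was also lost over the neuronal genes and without mitochondrial UMIs in the total. These shift every gene by −0.14 and −0.09 in the wild-type and −0.11 and −0.08 in the homozygous library. Thinning lost it in the wild-type library too. A change of total or factor, or raw UMIs per cell, moved every gene alike. Counts under these are to be read beside the shares of all genes. In other over typical cells the shares ranged from 43.6% to 49.75% lower and 13.7% to 25.6% higher with DESeq2 or TMM. By raw UMIs they ranged from 75.6% to 88.7% higher. In atypical over typical wild-type cells, the share called higher fell from 22.1% to 12.7% with DESeq2 and 13.2% with TMM. The share called lower rose there to 26.9% and 26.4%. In the heterozygous library the share called higher rose from 19.2% to 25.96% over the neuronal genes. In the homozygous library the share called lower fell from 21.8% to 17.5% by raw UMIs, and further over the neuronal genes. The counts of the 10 moved the same way as these shares. Thinning, subtracting droplets, the mean over cells and a changed choice of cells do not move every gene alike. For these and for 1.5-fold the share of all genes was not counted, so nothing is read from those counts. By raw UMIs 44.9% (homozygous over wild-type) and 35.1% (homozygous over heterozygous) of all genes were called lower in typical cells. For other over typical cells *Hspa9* changed sign with DESeq2 and TMM (−0.32 and −0.26 in the wild-type, −0.21 and −0.17 in the homozygous library), *Dnaja1* did in the wild-type library (−0.26 and −0.20), and *Hspe1* did by raw UMIs (0.0071 and 0.11). *Hsp90b1* and *Hspa5* rest on 139 and 169 wild-type UMIs in typical cells, which limits their precision.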
